A study of Mus musculus with 31 samples.

Results

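The adrenergic and histamine receptors are G protein-coupled receptors for noradrenaline, adrenaline and histamine, and 9 of their genes were examined among the 52636 genes of the expression table. They were chosen by name: Adra1a, Adra1b, Adra1d, Adra2a, Adra2c, Adrb1, Hrh1, Hrh2 and Hrh3. All 9 were above 0.1 TPM in every mouse, so all 9 passed the filter on low values in each comparison. TPM corrects the level of a transcript for the length of its gene and for the total of its library, so that levels can be compared between genes.

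The data came from frozen tissue punches of the caudate putamen (CPu), the dorsal part of the striatum, of 31 young adult female mice of the C57BL/6NTac-Brd1 strain. There were 8 wild type (WT) and 7 Brd1+/- mice administered vehicle (saline), and 8 WT and 8 Brd1+/- mice administered imipramine (IMN) at 10 mg/kg, with each mouse sequenced on its own. Brd1+/- mice carry 1 allele with a targeted deletion in Brd1, which encodes a reader of acetylated histones, so that the deletion is not restricted to a cell type. All groups, vehicle included, were injected and then tested for behavior, ending with a forced swim shortly before the brains were collected, so that no group here was left uninjected or untested. The labels give no age.

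Alpha1 receptors (Adra1a, Adra1b, Adra1d) and the histamine H1 receptor (Hrh1) couple to Gq proteins, which act through phospholipase C and calcium release. The beta1 receptor (Adrb1) and the H2 receptor (Hrh2) couple to Gs and raise cAMP, whereas alpha2 receptors (Adra2a, Adra2c) and the H3 receptor (Hrh3) couple to Gi and lower it, often as brakes on transmitter release. IMN is a tricyclic antidepressant that blocks the uptake of noradrenaline and serotonin and binds alpha1 and H1 receptors directly. In the striatum, alpha2C and H3 receptors are known as receptors of the medium spiny neurons, while alpha1 and alpha2A receptors are better known from the cerebral cortex.

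Before the receptors, the libraries were examined against their labels. Brd1 was at 18.3 to 26.9 TPM in vehicle-treated WT mice and at 11.1 to 16.0 TPM in vehicle-treated Brd1+/- mice, and at 14.6 to 22.5 and 11.3 to 13.9 TPM in the IMN groups. The 2 genotypes did not overlap within either treatment. The mean level on the log2 scale of 10 markers of cortical excitatory neurons lay between 0.90 and 5.98 in vehicle-treated WT mice, between 1.33 and 3.32 in vehicle-treated Brd1+/- mice, and between 0.96 and 4.92 in IMN-treated mice. It was 4.76 or more in 6 of the 8 vehicle-treated WT mice (1 to 5 and 7) and 0.90 and 1.01 in mice 6 and 8. The mean of 10 markers of medium spiny neurons, the defining cells of CPu, was lowest in vehicle-treated WT mice 1 and 2 (6.01 and 3.17) and between 7.05 and 9.13 in all others. All 10 striatal markers were above 0 in every mouse, and among the cortical markers Emx1 was at 0 in at least 1 mouse. Vehicle-treated WT mouse 7, labelled female, held 26.8 TPM of 4 Y-linked genes, where the other mice held at most 0.188 TPM. The receptor results that rest on these mice are given with and without them.

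The 9 receptors differed widely in level. Hrh3 was the most abundant in 31 of 31 mice, with a mean of 142 ± 31.8 TPM (SD, n = 31). Over all mice it was followed by Adra2c (22.1 ± 6.47 TPM), Adrb1 (9.41 ± 3.64 TPM) and Hrh2 (5.55 ± 1.53 TPM). Of these neighbours, Hrh3 exceeded Adra2c and Adrb1 exceeded Hrh2 in every mouse, whereas Adra2c exceeded Adrb1 in 26 of 31. The 5 exceptions were all vehicle-treated WT mice, of which 3 of 8 kept Adra2c above Adrb1. Adra1b (4.41 ± 5.83 TPM), Adra2a (3.46 ± 4.27 TPM), Adra1d (3.28 ± 7.27 TPM), Adra1a (2.38 ± 1.05 TPM) and Hrh1 (1.98 ± 1.29 TPM) made up the lower end. The SDs of Adra1b, Adra2a and Adra1d were larger than their means, and the order of these 5 was not fixed. Adra1b exceeded Adra2a in 24 of 31 mice, Adra2a exceeded Adra1d in 24, Adra1d exceeded Adra1a in 7 and Adra1a exceeded Hrh1 in 19.

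**Figure D1:**
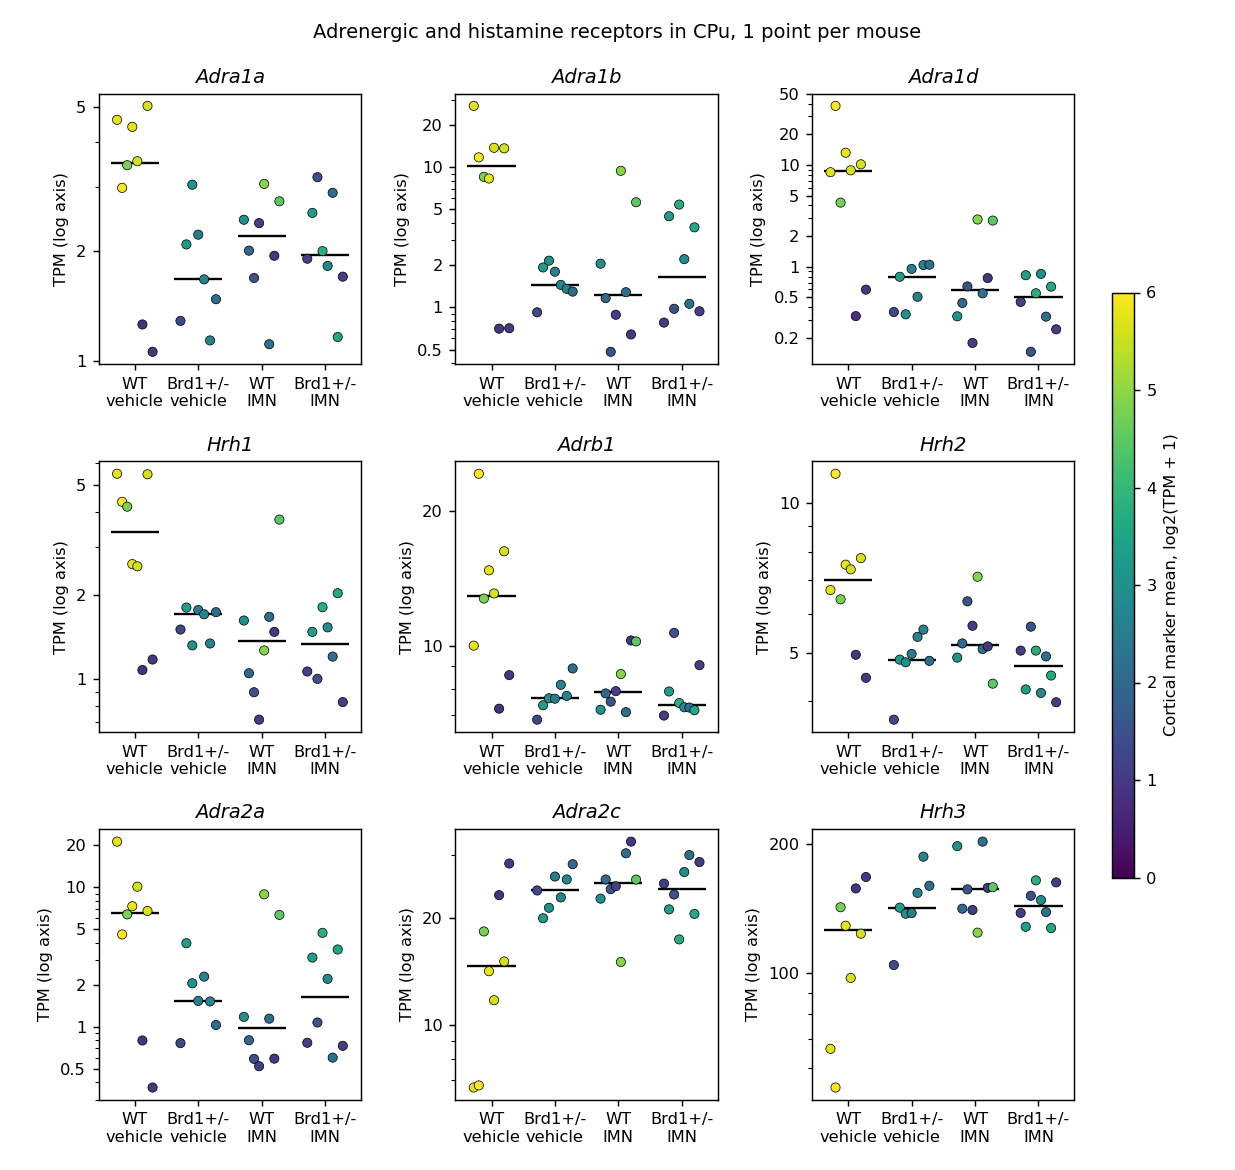
TPM of each receptor (vertical log axis) in each mouse (points) of the 4 groups, with the group median as a bar and the mean log2(TPM + 1) of 10 cortical marker genes as the point color. In the panels of Adra1b, Adra1d, Adra2a and Hrh1 vehicle-treated WT mice fall into 6 high and 2 low points, and the same 6 mice are low for Adra2c.

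The Gi-coupled receptors held most of the receptor transcripts, as the plot of receptor make-up by mouse shows. In vehicle-treated Brd1+/- mice they made up 90.3 ± 0.98% of the summed TPM of the 9 genes (SD, n = 7), in IMN-treated WT mice 89.6 ± 3.62% (SD, n = 8) and in IMN-treated Brd1+/- mice 89.9 ± 1.43% (SD, n = 8). In vehicle-treated WT mice they made up 72.9 ± 16.8% (SD, n = 8), from 41.3% to 92.2%. The Gq-coupled receptors made up 15.8 ± 12.2% in vehicle-treated WT mice and 3.05 ± 0.637%, 3.69 ± 2.76% and 3.44 ± 1.26% in the other 3 groups in the same order. The sum over the 9 genes did not separate the groups. It lay between 157 and 213 TPM in vehicle-treated WT mice, between 144 and 232 TPM in vehicle-treated Brd1+/- mice and between 171 and 251 TPM in IMN-treated mice.

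**Figure D2:**
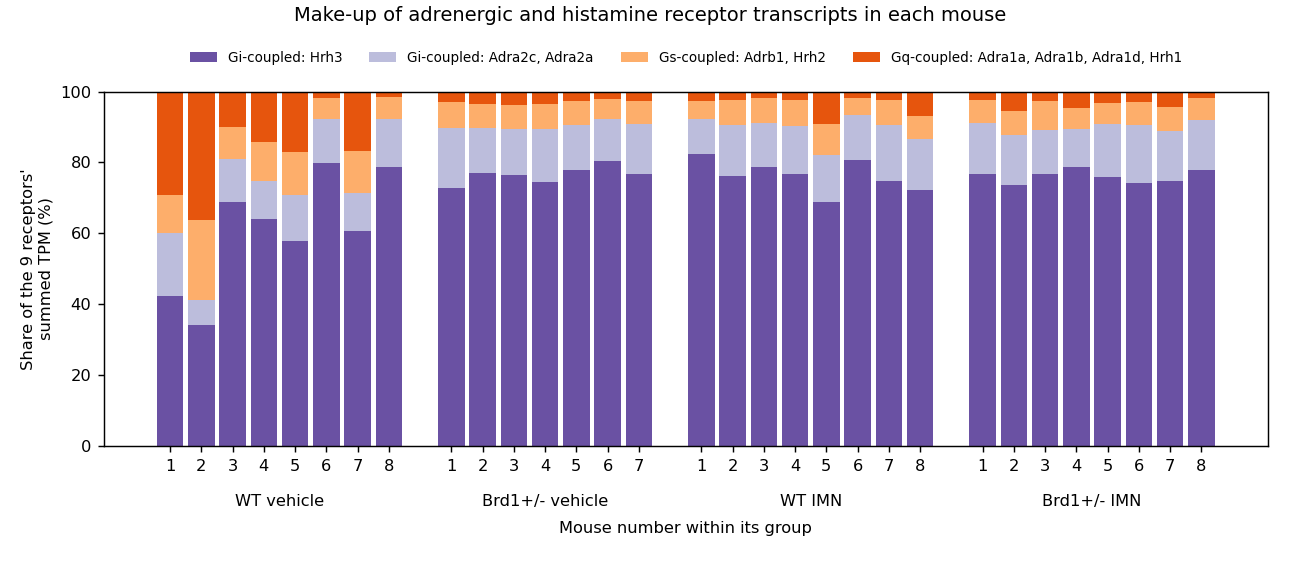
Share of the summed TPM of the 9 receptors (vertical axis, percent) held by each coupling class in each mouse, 1 bar per mouse in the 4 groups. Hrh3 holds 34.1% to 80.0% in vehicle-treated WT mice and 68.8% to 82.4% in the other groups, and the Gq-coupled share is largest in vehicle-treated WT mice 1 and 2.

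Upstream sequence was looked up for the 9 genes in RefSeq promoters on GRCm38.p6, and 7 of them matched. Adra1a and Adra1d did not. The 3 shown were chosen for how their genes ran in the data. Adra1b was among the receptors that varied most between mice, Adrb1 was lower at the nominal threshold in both comparisons with vehicle-treated WT mice, and Hrh3 was the most abundant. Each is the stretch before the annotated transcripts of the gene, 5′ to 3′ on the strand of the gene, with letters in capitals where a searched motif matched.
Adra1b, chr11:43901238-43901487, minus strand: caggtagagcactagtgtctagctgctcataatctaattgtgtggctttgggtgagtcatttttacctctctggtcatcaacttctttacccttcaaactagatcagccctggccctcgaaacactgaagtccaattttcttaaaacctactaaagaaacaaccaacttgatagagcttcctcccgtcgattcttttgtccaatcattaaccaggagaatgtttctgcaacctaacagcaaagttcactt
Adrb1, chr19:56721867-56722116, plus strand: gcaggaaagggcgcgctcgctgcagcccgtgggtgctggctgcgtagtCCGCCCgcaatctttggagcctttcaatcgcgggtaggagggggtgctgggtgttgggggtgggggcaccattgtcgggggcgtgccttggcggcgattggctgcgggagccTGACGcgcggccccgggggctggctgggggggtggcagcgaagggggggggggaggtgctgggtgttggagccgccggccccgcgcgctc
Hrh3, chr2:180104489-180104657, minus strand: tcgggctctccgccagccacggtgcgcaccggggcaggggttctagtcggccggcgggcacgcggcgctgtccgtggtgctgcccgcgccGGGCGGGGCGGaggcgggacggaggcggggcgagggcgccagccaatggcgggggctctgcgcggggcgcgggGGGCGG
The motifs searched in 250 bases on both strands were the GC box GGGCGG, the half-site TGACG of the cAMP response element, the E-box CAGCTG and the TATA box TATAAA, which are in 32.7%, 17.8%, 13.0% and 12.4% of 32851 promoters. Adra1b held none of the 4, with a GC content of 41.6% and 3 CpG in its 250 bases. Another RefSeq promoter of Adra1b, inside the gene at chr11:43836440-43836739, held a GC box, with a GC content of 72.8% and 22 CpG, and is not printed. Adrb1 held a GC box on the opposite strand 202 bases before the start and a cAMP half-site 90 bases before it, with a GC content of 74.0% and 24 CpG. In the 169 bases printed, Hrh3 held GC boxes 160, 155 and 87 bases before the start, the first 2 of them overlapping. Positions nearer the start were not listed for it, while its GC content of 80.8% and 42 CpG are those of all 250 bases. The median promoter has a GC content of 52.4% and 6 CpG. These matches describe letters only, and no measurement of binding was made here.

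The first comparison asked how Brd1+/- mice differ from WT mice under vehicle. Among the Gq-coupled receptors, Adra1b and Adra1d were lower in Brd1+/- mice at the nominal threshold used in the study (p under 0.01), as was Adrb1 among the Gs-coupled ones. No receptor was higher at that threshold, and 0 of 9 passed a Benjamini-Hochberg FDR of 5%. Of all 23200 genes tested, 12.1% were lower and 1.47% higher at the nominal threshold and 0% passed the FDR, and the receptors' 3 of 9 lower are read against that background. The median difference over the 9 receptors was −0.63 on the log2(TPM + 1) scale, and −0.13 over all genes. At an unadjusted p under 0.05, 7168 genes differed.

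Adra1b (alpha1B receptor, chr11:43774606-43901210, minus strand) had 27.4, 11.8, 8.53, 8.30, 13.8, 0.705, 13.6 and 0.710 TPM in vehicle-treated WT mice 1 to 8, and 0.921 to 2.15 TPM with a median of 1.45 TPM in vehicle-treated Brd1+/- mice. Thus 6 WT mice lay above every Brd1+/- mouse, and the remaining 2, mice 6 and 8, lay below every one. The difference was −1.70 (SE 0.518, adjusted p = 0.0599, limma). Adra1d (alpha1D receptor, chr2:131545850-131562283, minus strand) had 8.49, 38.0, 4.27, 13.2, 8.87, 0.328, 10.2 and 0.596 TPM in the same WT mice and 0.341 to 1.05 TPM (median 0.798) in Brd1+/- mice. The same 6 WT mice lay above every Brd1+/- mouse, and the difference of −2.07 was the largest of the 9 (SE 0.568, adjusted p = 0.0556, limma). By a two-sided exact permutation test of the single gene, p was 0.0112 for Adra1b and 0.00932 for Adra1d (n = 8 WT and 7 Brd1+/- mice).

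Adra1a and Hrh1 also had negative differences, which were smaller than those of Adra1b and Adra1d and did not pass the nominal threshold. Adra1a (alpha1A receptor, chr14:66635251-66771168, plus strand) was at 2.99 to 5.02 TPM in WT mice 1 to 5 and 7, at 1.26 and 1.06 TPM in mice 6 and 8, and at 1.14 to 3.05 TPM in Brd1+/- mice. Of the WT mice 5 lay above every Brd1+/- mouse and 1 below, and the others overlapped with them. The difference was −0.53 (SE 0.235, adjusted p = 0.141, limma). Hrh1 (H1 receptor, chr6:114397936-114483296, plus strand) was at 2.55 to 5.48 TPM in the 6 high WT mice, at 1.08 and 1.18 TPM in mice 6 and 8, and at 1.32 to 1.81 TPM in Brd1+/- mice. All Brd1+/- mice therefore lay in the gap between the WT mice, and the difference was −0.63 (SE 0.236, adjusted p = 0.0928, limma).

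Of the Gs-coupled receptors, Adrb1 (beta1 receptor, chr19:56722199-56733113, plus strand) had 10.0, 24.3, 12.8, 14.8, 13.1, 7.23, 16.3 and 8.60 TPM in vehicle-treated WT mice 1 to 8 and 6.84 to 8.90 TPM (median 7.63) in Brd1+/- mice. Again 6 WT mice lay above every Brd1+/- mouse, while mice 6 and 8 lay within their range. The difference was −0.64 (SE 0.188, adjusted p = 0.0572, limma, and p = 0.00528 by exact permutation). Hrh2 (H2 receptor, chr13:54192129-54236180, plus strand) was at 6.41 to 11.5 TPM in the 6 high WT mice, at 4.96 and 4.45 TPM in mice 6 and 8, and at 3.67 to 5.57 TPM in Brd1+/- mice. Its difference of −0.43 did not pass the nominal threshold in limma (SE 0.150, adjusted p = 0.0781) and had an exact permutation p of 0.00995.

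The Gi-coupled receptors did not move as a class. Adra2a (alpha2A receptor, chr19:54044151-54048982, plus strand) had 21.2, 4.58, 6.38, 7.30, 10.1, 0.795, 6.75 and 0.366 TPM in vehicle-treated WT mice 1 to 8 and 0.761 to 3.96 TPM (median 1.53) in Brd1+/- mice. Its difference was −1.13 with a wide 95% confidence interval of −2.16 to −0.10 (adjusted p = 0.131, limma). Adra2c (alpha2C receptor, chr5:35278319-35281763, plus strand) ran the other way, with 6.66, 6.75, 18.3, 14.1, 11.7, 23.1, 15.1 and 28.4 TPM in WT mice 1 to 8 and 19.9 to 28.3 TPM (median 23.9) in Brd1+/- mice. The 6 WT mice that were high for Adra1b all lay below every Brd1+/- mouse for Adra2c, and the difference was 0.73 (SE 0.252, adjusted p = 0.0750, limma, and p = 0.0143 by exact permutation). Hrh3 (H3 receptor, chr2:180099465-180104488, minus strand) was at 54.0 to 168 TPM in WT mice, lowest in mice 1 and 2, and at 104 to 187 TPM in Brd1+/- mice. Its difference was 0.39 with an interval from −0.08 to 0.86 (adjusted p = 0.239, limma). The ratio of Adra2c to Adra2a spread from 0.314 to 77.6 within vehicle-treated WT mice and from 5.03 to 31.3 in vehicle-treated Brd1+/- mice.

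The marker genes moved with this comparison. The cortical markers summed to 12.5 to 2016 TPM in vehicle-treated WT mice and 21.1 to 241 TPM in Brd1+/- mice, with negative differences in 10 of 10, of which 2, Fezf2 and Emx1, passed the nominal threshold. The striatal markers summed to 275 to 10460 TPM in WT mice and 8450 to 9808 TPM in Brd1+/- mice, with positive differences in 10 of 10, of which 1, Penk, passed. With all 4 groups in one fit 5 of 10 cortical markers were lower and 10 of 10 striatal markers higher, where 4305 of all genes were lower and 700 higher. Of 6 interneuron markers 3 were called, all lower (Npy, Sst and Pvalb), and the other 3 (Chat, Slc5a7 and Nos1) had positive differences. Of the markers tested for astrocytes, oligodendrocytes, microglia, vessels, choroid plexus and red blood cells 0 were called. Under median-of-ratios scaling 3 of 7 microglia markers and 1 of 7 vessel markers were higher, where 931 of all genes were higher. With the cortical marker mean in the model, 0 of 9 receptors passed the nominal threshold, and the difference became −0.51 for Adra1b, −0.84 for Adra1d, −0.08 for Adra2a, −0.31 for Adrb1 and 0.26 for Adra2c. With the striatal marker mean in its place, 0 of 9 passed as well, and Adra1b was at −0.93, Adra1d at −0.91 and Adra2c at 0.19. Calls over all 23200 genes fell in the same fits, from 2811 lower and 342 higher to 508 and 32 with the cortical and 291 and 41 with the striatal marker mean. In tissue punches, fewer cells of a type and less RNA per cell cannot be told apart, nor can a receptor's level in one cell type from the share of that cell type.

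Without vehicle-treated WT mice 1 and 2, 2 of 9 receptors were lower at the nominal threshold (Adra1d at −1.59, Adrb1 at −0.54) and Adra1b (−1.29) was not. Without mouse 7, the mouse with Y-linked transcripts, 2 of 9 were lower (Adra1d at −1.97, Adrb1 at −0.59), and Adra1b (−1.58) was not. Leaving out mouse 6, or leaving out mouse 8, each raised the count to 7 lower and 1 higher, and all 8 of these receptors then passed the FDR. The counts over all genes moved as well, from 2811 lower and 342 higher to 1209 and 123 without mice 1 and 2, 1936 and 277 without mouse 7, 3948 and 628 without mouse 6 and 4525 and 629 without mouse 8. Under median-of-ratios scaling, which brought the median difference over all genes from −0.13 to 0.0023, lower calls over all genes fell to 1207 against 931 higher, and the receptors gave 2 lower and 1 higher, the latter Adra2c. Adrb1 lost its call under this scaling (−0.46) and under quantile normalization (−0.43).

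**Figure D3:**
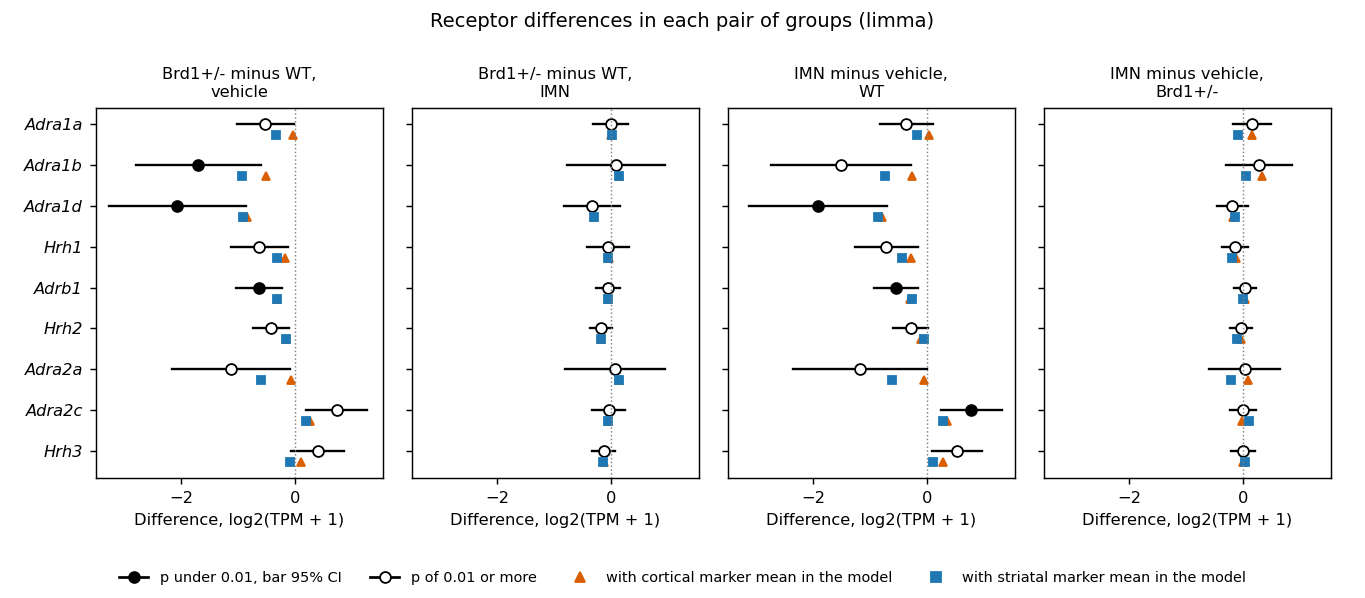
Difference of each receptor on the log2(TPM + 1) scale (horizontal axis) in the 4 pairs of groups, as circles with 95% confidence intervals, filled where p was under 0.01, with triangles and squares for fits that include the cortical or the striatal marker mean. Differences reach −2.07 and 0.77 in the pairs with vehicle-treated WT mice and lie between −0.34 and 0.27 in the other pairs.

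Under IMN, Brd1+/- and WT mice were compared with 8 mice each, and no receptor was called. Differences lay between −0.34 for Adra1d and 0.08 for Adra1b, with a median of −0.06 over the receptors and −0.03 over all genes. Of all 23339 genes tested, 0.514% were lower and 0.189% higher at the nominal threshold and 0.00428% (1 gene, Brd1, at −0.60, adjusted p = 0.0396, limma) passed the FDR. Adra1b was at 0.482 to 9.42 TPM (median 1.22) in WT and 0.778 to 5.41 TPM (median 1.63) in Brd1+/- mice, and Adra2a at 0.520 to 8.88 TPM (median 0.970) and 0.599 to 4.70 TPM (median 1.64). Their wide ranges left 95% confidence intervals of −0.78 to 0.94 and −0.80 to 0.95. Adrb1 (7.10 to 10.3 and 6.98 to 10.7 TPM) and Adra2c (15.0 to 32.7 and 17.4 to 30.0 TPM) were more even, with intervals of −0.27 to 0.15 and −0.33 to 0.24. Hrh2 was at 4.34 to 7.12 TPM in WT and 3.98 to 5.65 TPM in Brd1+/- mice, with a difference of −0.18 (adjusted p = 0.998, limma). Hrh3 was at 124 to 203 TPM in WT and 127 to 165 TPM in Brd1+/- mice.

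The effect of IMN was then asked within each genotype. In WT mice, Adra1d and Adrb1 were lower and Adra2c higher under IMN at the nominal threshold, and 0 of 9 passed the FDR. Over 23579 genes the background was 5.6% lower and 1.35% higher at the nominal threshold and 0.00424% (1 gene) under the FDR. The vehicle-treated WT mice are the same as in the first comparison, so that the 2 are not independent. Adra1d was at 0.179 to 2.91 TPM (median 0.595) under IMN, where 6 vehicle-treated mice lay above every IMN-treated one, and the difference was −1.92 (SE 0.571, adjusted p = 0.141, limma). Adrb1 was at 7.10 to 10.3 TPM under IMN, a difference of −0.55 (SE 0.184, adjusted p = 0.141, limma). Adra2c was at 15.0 to 32.7 TPM under IMN, a difference of 0.77 (SE 0.254, adjusted p = 0.141, limma). By exact permutation of the single gene p was 0.00855 for Adra1d, 0.0110 for Adrb1 and 0.0132 for Adra2c.

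Among the others in WT mice, Adra1b differed by −1.51 (adjusted p = 0.160, limma), Adra2a by −1.18 (adjusted p = 0.213, limma) and Hrh1 by −0.72 (adjusted p = 0.151, limma). Hrh3 differed by 0.52, Adra1a by −0.37 and Hrh2 by −0.29. All groups overlapped. The cortical markers summed to at most 2016 TPM (mean 1193) under vehicle and 1099 TPM (mean 247) under IMN, with negative differences in 10 of 10 (median −2.08). The striatal markers summed to 275 to 10460 TPM and 5035 to 9283 TPM, with positive differences in 10 of 10 (median 1.48). Marker genes called in this comparison were Emx1, Pvalb, Cldn5, Hba-a1 and Hba-a2, which were lower, and Kl, which was higher. The median over the receptors was −0.55, against −0.08 over all genes. With the cortical or the striatal marker mean in the model 0 of 9 were called, with Adra1d at −0.80 and −0.87, Adrb1 at −0.30 and −0.28 and Adra2c at 0.35 and 0.28. Without vehicle-treated WT mice 1 and 2, 0 of 9 were called (Adra1d at −1.44, Adrb1 at −0.45, Adra2c at 0.45), and without mouse 7 only Adra1d was (−1.83). Calls over all genes, 1321 lower and 318 higher with every mouse, were 211 and 127 with the cortical and 181 and 121 with the striatal marker mean, 398 and 189 without mice 1 and 2, and 772 and 295 without mouse 7. Without vehicle-treated WT mouse 6 or 8, 1176 and 2459 genes passed the FDR, in place of 1, and 2 (Adra1d and Adrb1) and 5 receptors. Under median-of-ratios scaling (−0.44) and quantile normalization (−0.42) Adrb1 was not called.

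In Brd1+/- mice, IMN- and vehicle-treated mice did not differ at the nominal threshold in any receptor. Over 23020 genes, 0.964% were lower, 0.869% higher and 0% under the FDR. Differences ran from −0.19 for Adra1d to 0.27 for Adra1b, with a median of 0.0011. Adra2c (19.9 to 28.3 TPM under vehicle, 17.4 to 30.0 TPM under IMN) differed by −0.01 with a 95% confidence interval of −0.24 to 0.23, and Hrh3 by 0.0011 with an interval of −0.21 to 0.21. Adrb1 differed by 0.03 with an interval of −0.16 to 0.22. For Adra2a the interval ran from −0.60 to 0.65 and is too wide to bound the difference closely. Of the marker genes Drd1, the dopamine D1 receptor, was lower (−0.19, adjusted p = 0.517, limma).

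Whether the effect of IMN differed between the genotypes was tested as an interaction over all 31 mice. Adra1d was the only receptor past the nominal threshold, with a difference between the effects of 1.73 (SE 0.627, 95% confidence interval 0.45 to 3.01, adjusted p = 0.261, limma). Over 25394 genes, 0.78% were lower and 2.97% higher at the nominal threshold and 0% passed the FDR, while 4119 had an unadjusted p under 0.05. Adra1b (1.78), Adrb1 (0.58) and Adra2c (−0.78) had the same adjusted p of 0.261 and did not pass the nominal threshold. For Adra2a, Hrh1, Adra1a, Hrh3 and Hrh2 the interaction was 1.20, 0.57, 0.52, −0.52 and 0.25. With the cortical marker mean in the model the interaction of Adra1d was 0.82 and with the striatal one 0.56, and neither passed. Without vehicle-treated WT mice 1 and 2 it was 1.25, which did not pass either, and without mouse 7 it was 1.64, which did not pass. With a pseudocount of 0.1 (2.16) or moderation without a trend (1.73) Adra1d did not pass, and Adrb1 did (0.63 and 0.58).

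**Figure D4:**
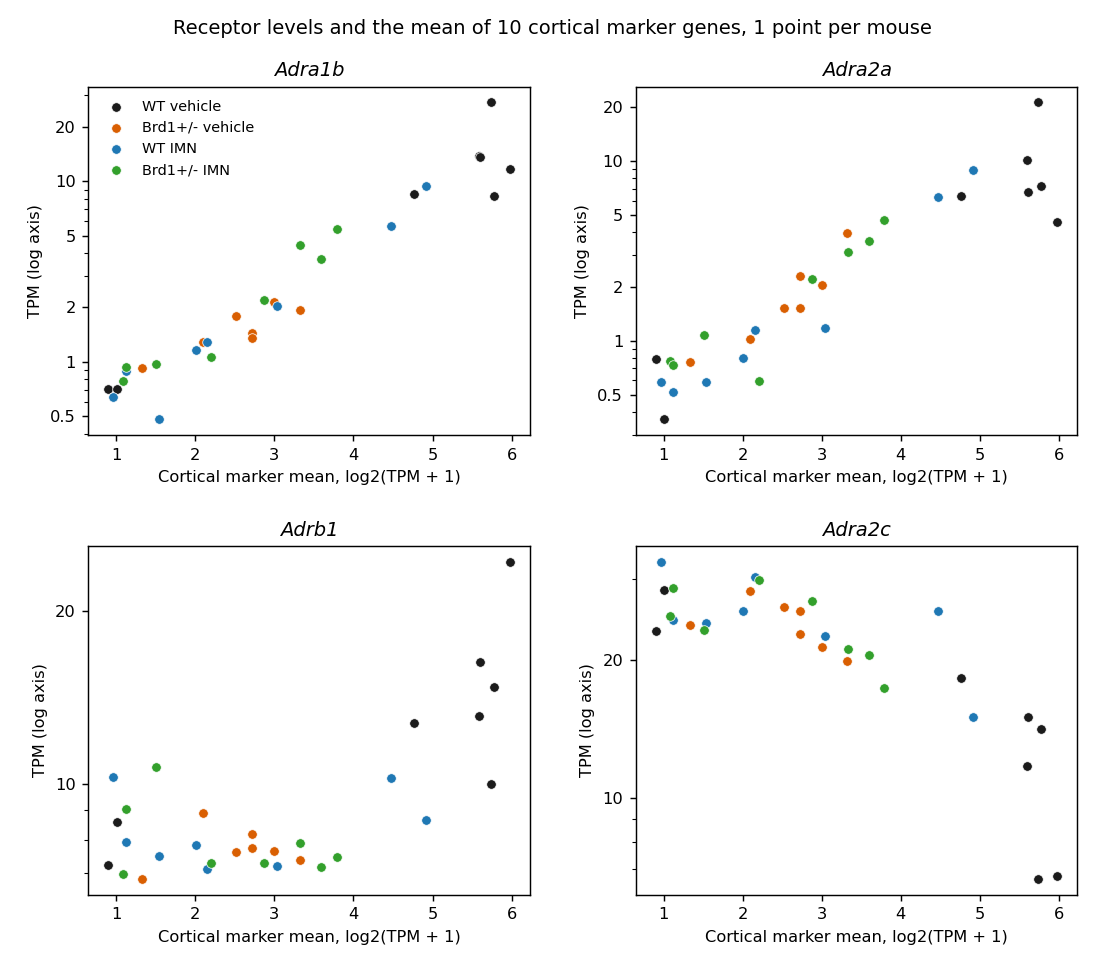
TPM of 4 receptors (vertical log axis) against the mean log2(TPM + 1) of 10 cortical marker genes (horizontal axis), 1 point per mouse, colored by group. The highest values of Adra1b and Adra2a lie at the right end of the axis, where Adra2c has its lowest values, and Adrb1 lies between 6.84 and 10.7 TPM in the 23 mice of the other groups.

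Mice outside the vehicle-treated WT group differed in the cortical markers too. In IMN-treated WT mice 5 and 8, with cortical marker means of 4.92 and 4.47, Adra1b was 9.42 and 5.62 TPM and Adra2a 8.88 and 6.32 TPM. In the other 6 IMN-treated WT mice, with means of 0.96 to 3.03, Adra1b was 0.482 to 2.05 TPM and Adra2a 0.520 to 1.17 TPM. Adra1d was 2.91 and 2.84 TPM in mice 5 and 8 and 0.179 to 0.775 TPM in the rest. In IMN-treated Brd1+/- mice 2, 4 and 7, with means of 3.33, 3.79 and 3.59, Adra1b was 4.47, 5.41 and 3.72 TPM, and it was 0.778 to 2.21 TPM in the other 5. Adra1d was 0.826, 0.549 and 0.638 TPM in these 3 mice and 0.146 to 0.852 TPM in the other 5, so that there the mice overlapped. Adrb1 was 8.65 and 10.2 TPM in IMN-treated WT mice 5 and 8, 10.3 TPM in mouse 7 and 7.10 to 7.92 TPM in the other 5 of that group.

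Genes that ran most like each receptor were sought by Spearman's rho of log2(TPM + 1), centered on the group means, over 31 mice and 17348 genes with a mean TPM of at least 1. These values are descriptions of shared variation between mice and carry no test. Adra1b ran most like Trbc2 (rho 0.97), Tbr1 (0.96), a transcription factor of cortical projection neurons, and Vxn (0.96). Adra2a ran most like Nptx1 (0.97), which encodes a synaptic pentraxin, Ipcef1 (0.96) and Vxn (0.96), and Adra1b and Adra2a ran alike (0.94). Adra1d was nearest to Golga7b (0.91), Kcnj9 (0.89), a subunit of G protein-gated potassium channels, and Mical2 (0.89), and Adra1a to Arnt2 (0.89), Gm5539 (0.88) and Tbc1d24 (0.87). Adra2c was nearest to Epor (0.93), the erythropoietin receptor, Klf16 (0.92) and Ajap1 (0.88), and ran against Adra1b (−0.66). Adrb1 (Hs2st1, 0.81), Hrh1 (Grp, 0.77), Hrh2 (Atxn2l, 0.77) and Hrh3 (Rem2, 0.79) had less close neighbours, and among receptors Hrh3 was nearest to Adra2c (0.62).

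Outside the 9 genes, the adrenergic receptor genes Adra2b and Adrb3 were also looked up, and both were low. Adra2b (alpha2B receptor) had 0.0528, 0.0242, 0.123, 0.216, 0.1, 0.246, 0.154 and 0.177 TPM in vehicle-treated WT mice 1 to 8, and 0.248 to 0.564 TPM in vehicle-treated Brd1+/- mice. In IMN-treated mice it had 0.265 to 0.529 TPM (WT) and 0.289 to 0.571 TPM (Brd1+/-). Every vehicle-treated WT mouse, mice 6 and 8 included, thus lay below every other mouse, by a margin as small as that between 0.246 and 0.248 TPM, at levels close to the filter of 0.1 TPM, which the Brd1+/- mice or the IMN-treated mice met by themselves. The share of all genes that separate the groups in this way is not given here, so the separation has no background beside it. Adra2b was higher at the nominal threshold in Brd1+/- mice under vehicle (0.24, SE 0.0633, adjusted p = 0.0556, limma) and under IMN in WT mice (0.29, SE 0.0571, adjusted p = 0.132, limma), where 1.47% and 1.35% of all genes were higher. Adra2b was left untested in both comparisons by the stricter filter (mean of 1 TPM or more), so the counts below leave that setting out. The effect of IMN in WT mice kept the nominal threshold in 10 of 10 other settings that tested the gene. It also kept it in 16 of 16 fits with a mouse left out. It was 0.23 with the cortical and 0.22 with the striatal marker mean, and adjusted p (limma) ran from 0.0187 to 0.720 over the settings. The difference between genotypes under vehicle kept the nominal threshold in 8 of 10 such settings and in 15 of 15 fits with a mouse left out. Adjusted p (limma) ran from 0.00859 to 0.545 over the settings. That difference lost the threshold with the cortical (0.19) and the striatal (0.17) marker mean. Adrb3 was at most 1.04 TPM in any mouse and did not pass the filter in any comparison.

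Of 15 genes that make, transport or break down the ligands, 11 were tested. Dbh, which makes noradrenaline, and Slc6a2, the noradrenaline transporter that IMN blocks, were at most 0.111 and 0.0318 TPM in any mouse. The cell bodies of noradrenaline neurons lie in the brainstem, outside CPu. Hdc, which makes histamine, had group means of 0.235 to 0.327 TPM, and Hnmt, which inactivates histamine, of 20.2 to 26.9 TPM. Under vehicle 1 of the 11 was called, Pnmt, the enzyme that makes adrenaline, at 0.54 (SE 0.169, adjusted p = 0.0629, limma), from a mean of 0.242 ± 0.391 TPM in WT mice to 0.764 ± 0.349 TPM in Brd1+/- mice. Over all genes 1.47% were higher in that comparison. Pnmt was listed at 0 in 5 of 8 vehicle-treated WT mice and was above 0.1 TPM in 3, so that it passed the filter through the Brd1+/- mice, in which it was higher. It kept the threshold in 7 of 10 other settings and 7 of 15 fits with a mouse left out, and lost it with the cortical (0.39) and the striatal (0.37) marker mean and without vehicle-treated WT mice 1 and 2. Without mouse 7, the mouse with Y-linked transcripts, it lost the threshold as well, and with a mean TPM of at least 1 it was not tested. In WT mice IMN called 0 of the 11, and in Brd1+/- mice 1, Ddc, the aromatic amino acid decarboxylase, at 0.61 (SE 0.180, adjusted p = 0.437, limma), from 4.23 ± 1.07 to 7.12 ± 2.29 TPM, where 0.869% of all genes were higher. Ddc kept the threshold in 8 of 10 other settings and lost it with the striatal marker mean (0.44) and with all 4 groups in one fit. The list's median under vehicle was −0.03 and turned to 0.12 under median-of-ratios scaling.

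Downstream of the Gq-coupled receptors, 16 genes of Gq proteins, phospholipase C beta, inositol trisphosphate receptors and protein kinase C were tested. Under vehicle, Gna11 was lower (−0.22, SE 0.0757, adjusted p = 0.0731, limma) and Plcb2 higher (0.62, SE 0.178, adjusted p = 0.0556, limma) in Brd1+/- mice, 1 of 16 in each direction where 12.1% of all genes were lower and 1.47% higher. The list's median was −0.03. Gna11 kept the threshold in 2 of 11 other settings and 4 of 15 fits with a mouse left out, and was at −0.03 under median-of-ratios scaling. Plcb2 kept it in 8 of 11 and 15 of 15, and lost it with the cortical (0.46) and the striatal (0.41) marker mean and with all 4 groups in one fit. IMN called 0 of the 16 in WT mice, where 5.6% of all genes were lower and 1.35% higher, and 0 in Brd1+/- mice, where 0.964% and 0.869% were. With all 4 groups in one fit 4 of the 16 were lower under vehicle and 2 for IMN in WT mice, where 4305 and 2791 of all genes were.

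Downstream of the Gs- and Gi-coupled receptors, 9 of 21 genes were lower and 0 higher in Brd1+/- mice under vehicle, with a median of −0.36, where over all genes 12.1% were lower and 1.47% higher, with a median of −0.13. Those with the smallest p were Gnas, which encodes Gs alpha (603 ± 241 TPM in WT and 240 ± 91.8 TPM in Brd1+/- mice, difference −1.29, SE 0.288), Gnaz, a Gi family protein (−0.55, SE 0.133), and Prkar1b, a regulatory subunit of protein kinase A (−1.19, SE 0.300). Each had an adjusted p of 0.0556 in limma. Adcy5, the main adenylyl cyclase of the striatum, was at 219 ± 149 TPM in WT and 405 ± 30.1 TPM in Brd1+/- mice and was not called. Under median-of-ratios scaling 7 of 21 were lower and 1 higher, with the cortical marker mean in the model 4 were lower, with the striatal one 1, and without vehicle-treated WT mice 1 and 2, 4. Without mouse 7, 7 were lower. Of all genes, 1207, 508, 291, 1209 and 1936 were lower in these fits, in the order given. With all 4 groups in one fit 12 of 21 were lower and 1 higher, where 4305 of all genes were lower and 700 higher. Gnas kept the nominal threshold in 11 of 11 other settings, at −0.76 and −1.01 with the cortical and striatal marker means.

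Under IMN 4 of these 21 genes were lower in WT mice at the nominal threshold, among them Prkaca (−0.36), Gnas (−0.94) and Gnaz (−0.40), each with an adjusted p of 0.141 in limma, against 5.6% of all genes. With all 4 groups in one fit 9 were lower and 1 higher, where 2791 of all genes were lower and 633 higher. With the mouse number as a block, and under quantile normalization, 1 was lower, where 825 and 655 of all genes were. With the cortical or the striatal marker mean in the model 0 of 21 passed, and without vehicle-treated WT mice 1 and 2, or without mouse 7, 1 did. Of all genes, 211, 181, 398 and 772 were lower in these fits, in the order given. In Brd1+/- mice IMN called 0 of 21, where 0.964% of all genes were lower and 0.869% higher. The interaction called 2, Gnas (1.42, SE 0.402) and Adcy2 (1.08, SE 0.375), both with an adjusted p of 0.261 in limma, against 2.97% of all genes higher. With the striatal marker mean neither passed (1.07 and 0.47). Adcy2 passed in 15 of 31 fits with a mouse left out and not without vehicle-treated WT mice 1 and 2, and Gnas in 31 of 31. Without mouse 7 Gnas alone of the 21 passed.

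Of 7 genes that turn the receptors off, Grk2, Grk3 and Grk6, kinases that phosphorylate active receptors, were lower in Brd1+/- mice under vehicle, at −0.82 (SE 0.227), −1.06 (SE 0.306) and −0.35 (SE 0.0829), each with an adjusted p of 0.0556 in limma, where 12.1% of all genes were lower. Grk2 was at 103 ± 38.2 TPM in WT and 54.1 ± 7.27 TPM in Brd1+/- mice. Under median-of-ratios scaling 2 of the 7 were lower, with the cortical marker mean 2, with the striatal one 1, and without vehicle-treated WT mice 1 and 2, 1. Without mouse 7, 3 were lower. Of all genes, 1207, 508, 291, 1209 and 1936 were lower in these 5 fits. IMN called 0 of the 7 in either genotype, where 5.6% of all genes were lower in WT and 0.964% in Brd1+/- mice. With all 4 groups in one fit 4 were lower under vehicle and 2 for IMN in WT mice, where 4305 and 2791 of all genes were. The interaction called 1 of 7, against 2.97% of all genes higher, namely Grk6 (0.29, SE 0.102, adjusted p = 0.261, limma), which passed in 4 of 10 other settings and 14 of 31 fits with a mouse left out and was 0.15 under median-of-ratios scaling. Under IMN, genotype called 0 genes of any of these lists, where 0.514% of all genes were lower and 0.189% higher. Of the marker genes Alas2, a red blood cell marker, was higher in Brd1+/- mice in that comparison (0.66, SE 0.207, adjusted p = 0.998, limma).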

How the data were processed

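Groups and mouse numbers were taken from the labels, with 1 library per mouse. Per the study's methods and the submitters' processing notes, the authors aligned single-end BGISEQ reads to GRCm38 with HISAT2 2.1.0, quantified genes with StringTie 1.3.4 and deposited TPM for 52636 genes (sums of 999787 to 999918 per mouse). TPM carries no read counts, so the depth behind a value is unknown, its precision rests on the spread between mice, and the count test of the study could not be applied. GENCODE M21 gave symbols and GRCm38 positions for 52403 identifiers and none for 233.

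Each pair of groups was fitted separately by limma 3.58.1 (R 4.3.3) on log2(TPM + 1) with a mean-variance trend. Genes had to exceed 0.1 TPM in 7 or more of the fitted mice, and p-values were two-sided and adjusted over every gene tested. The interaction used all 31 mice. Single genes were also tested by exact permutation (scipy 1.17.1). The fits were tested on simulated data.

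The members and lists were chosen with earlier results of these data known. Named genes are the 9 members, Brd1, from each list and direction the genes with the smallest p under 0.01 (at most 3), the genes most like each member (at most 3) and defining markers. Adcy5, Adrb3, Dbh, Hdc, Hnmt and Slc6a2 were chosen after their values were seen, for their roles. Alternatives covered the pseudocount (0.1), the filter (mean TPM 1 or none), scaling by median of ratios or quantiles, moderation, the mouse number as a block, a joint fit of the 4 groups, marker means as covariates, exact permutation and leaving out each mouse. Leaving out WT vehicle mice 1 and 2 together was added after seeing the data.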

Additional observations from a re-analysis of the deposited data

Results flagged for a closer look

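Among 36 sets of values (9 receptors in 4 groups), 2 held a mouse far from the rest of its group, where chance alone marks about 1 in 20. Hrh1 was 3.75 TPM in IMN-treated WT mouse 8, and 0.715 to 1.68 TPM in the other 7 mice. That mouse had a cortical marker mean of 4.47, where the group ran from 0.96 to 4.92. Hrh2 was 3.67 TPM in vehicle-treated Brd1+/- mouse 1, and 4.79 to 5.57 TPM in the other 6.

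The effect of IMN on Adra1d differed between the genotypes by 1.73 on the log2(TPM + 1) scale at the nominal threshold (adjusted p = 0.261, limma), from an effect of −1.92 in WT to one of −0.19 in Brd1+/- mice. It rested on vehicle-treated WT mice, of which 6 held 4.27 to 38.0 TPM and 2 held 0.328 and 0.596 TPM.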

How the results depend on the processing

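Under vehicle, the 3 receptors lower and 0 higher in Brd1+/- mice became 7 and 1 in the fit blocked on mouse number, 5 and 1 with all 4 groups in one fit and 0 and 0 with either marker mean as a covariate, while median-of-ratios scaling and quantile normalization each gave 2 lower, without Adrb1, and 1 higher, and moderation without a trend gave 4 lower with Hrh2 added. Over all genes, 2811 lower and 342 higher became 3530 and 580 with the block and 4305 and 700 with all 4 groups in one fit. In WT mice, the 2 lower and 1 higher under IMN became 4 and 2 with all 4 groups in one fit, 0 and 0 with either marker mean and without vehicle-treated WT mice 1 and 2, and 1 and 0 by exact permutation, with 1 lower under each scaling, where Adrb1 lost its call. Over all genes, 1321 lower and 318 higher became 2791 and 633 with all 4 groups in one fit. For the interaction, the 0 lower and 1 higher became 1 and 2 with the block, and 2 were higher with a mean TPM of at least 1. With the pseudocount of 0.1 and with moderation without a trend the 1 higher was Adrb1 in place of Adra1d. None was higher with no filter, under either scaling, with either marker mean or without mice 1 and 2. With 1 mouse left out at a time, the count ran from 2 to 7 lower and 0 to 1 higher under vehicle, 1 to 4 lower and 0 to 2 higher for IMN in WT mice, and 0 to 1 lower and 0 to 3 higher for the interaction. The upper ends of 7 and 4 were reached without vehicle-treated WT mouse 6 or 8. In the blocked fit under vehicle WT mouse 8 has no partner and carries no weight, so each receptor had the same difference as in the fit without that mouse and without the block, which also gave 7 and 1. In the blocked fit of IMN in Brd1+/- mice the differences likewise equalled those without IMN-treated mouse 8.

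At an FDR of 5%, where 0 receptors passed, 6 passed under vehicle and 6 for IMN in WT mice with all 4 groups in one fit, when 4963 and 2291 of all genes passed too, against 0 and 1. Without WT mouse 6, and without mouse 8, 8 receptors passed under vehicle, with 4563 and 5482 of all genes, and 2 and 5 for IMN in WT mice, with 1176 and 2459 of all genes. No other fit with 1 mouse left out had a receptor under the FDR. Under vehicle 3 receptors passed with a mean TPM of at least 1 and 7 with the block, when 1833 and 3583 of all genes passed too, against 0. Mouse numbers did not pair the mice: same-numbered mice correlated at −0.45 to 0.49, above 0.1 in 8 of 30 pairs. Calls over all genes under vehicle were 2811 lower and 342 higher with every mouse, 4525 and 629 without WT mouse 8 and no block, and 3530 and 580 in the blocked fit, fewer than without mouse 8 alone.

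The receptors called in a comparison kept their sign there under every alternative run, and the signs that turned belong to receptors not called. Under vehicle, Hrh3 was −0.091 with the striatal mean. For genotype under IMN, Adra1a was 0.019 under median-of-ratios scaling, 0.016 under quantile normalization and 0.0060 with the striatal mean, and Adra2c 0.0067 under quantile normalization. For IMN in WT mice, Adra1a was 0.035 with the cortical mean. For IMN in Brd1+/- mice, the striatal mean gave −0.090 for Adra1a, −0.22 for Adra2a and 0.11 for Adra2c, quantile normalization −0.0033 for Adrb1 and −0.010 for Adra2a, the pseudocount of 0.1 −0.035 for Adra2a, and Hrh3 was −0.013 under median-of-ratios scaling and −0.024 with the block. The interaction of Hrh2 was −0.027 with the striatal mean. With 1 mouse left out, ranges crossing 0 were, for genotype under IMN, −0.092 to 0.062 for Adra1a, −0.073 to 0.35 for Adra1b, −0.076 to 0.35 for Adra2a, −0.14 to 0.016 for Adra2c and −0.13 to 0.077 for Hrh1. For IMN in Brd1+/- mice they were −0.13 to 0.17 for Adra2a, −0.052 to 0.056 for Adra2c, −0.027 to 0.059 for Adrb1 and −0.076 to 0.063 for Hrh3. The causes of these shifts were not tested. Adra1d has no value with a mean TPM of at least 1 in the comparisons of genotype under IMN and of IMN in Brd1+/- mice, and exact permutation was not run for the interaction.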
